A study of Mus musculus with 54 samples.

Results

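CTCF was mapped by chromatin immunoprecipitation sequencing (ChIP-seq) in 22 libraries of mouse cells, and the sites described here, called members, carried a CTCF peak in every one of them. Overlapping peaks (1 bp or more) of the 22 deposited lists were merged into 68126 sites, of which 1883 held a peak in all lists. Of these, 1437 had their median summit more than 1000 bp from every GENCODE protein-coding gene start on the mouse build mm10, and these 1437 are the members. The members were thus chosen by the peak calls themselves, so their number and their presence in each group are a description. A site that was weak in any single library was removed by the same rule.

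The cells were E14 mouse embryonic stem cells (ESCs) and the neural progenitors (NPCs) that 2 days of differentiation made from them. In ESC ΔZF1, ESC WT, NPC ΔZF1 and NPC WT (4 CTCF libraries each), endogenous CTCF carried the mAID-eGFP degron in a line with OsTir1(F74G) at Rosa26, and a doxycycline-inducible Flag-Halo CTCF, wild type or without zinc finger 1, stood at Tigre. All 4 of these groups, WT included, received 1 µM 5-Ph-IAA and 1 µg/ml doxycycline for 24 h, so that the rescue protein replaced the degraded endogenous one. In NPC PodxlpA and NPC Grb10pA, an inserted SV40 polyadenylation signal cut short the RNA of Podxl or of Grb10, and NPC E14 were their parental cells, each with 2 CTCF libraries and no degron. The cohesin subunit Rad21 was mapped in 2 libraries of each rescue group and Smc3 in 2 libraries of all 7 groups, which gave 22 cohesin lists. Peak lists hold no transcript levels, so the cell types could not be checked by marker genes, and the labels do not state that replicates were separate cultures, so that every p-value below measures the spread between these libraries only.

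CTCF is a zinc finger protein that reads a long DNA motif and halts cohesin, the ring complex that extrudes chromatin loops. Loops form mostly between CTCF sites whose motifs face each other. Zinc finger 1 lies at the N-terminal end of the zinc finger array and binds RNA.

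The sequences under the 5 members with the highest mean rank over the 22 lists are shown first, since the motif is what most members have in common. Each line gives 30 bases of the reference build GRCm38/mm10, 5′ to 3′ on the strand of the motif, with the 14 letters that match the CTCF core consensus in capitals. The Gdf15 sequence lies at chr8:70629886-70629915 on the minus strand, Rap1gap at chr4:137724949-137724978 on the plus strand, Epm2aip1 at chr9:111290009-111290038 on the minus strand, Ncs1 at chr2:31291644-31291673 on the minus strand and Pink1 at chr4:138319678-138319707 on the plus strand.
Gdf15: ggtagccgCCGGCAGGGGGCGCcgaagcgc
Rap1gap: cactctgaCCTGCAGGGGGCGCcagcgtgc
Epm2aip1: aagctttaCCACCAGAGGGCGCaaagggct
Ncs1: gctaaaggACACTAGAGGGCGCtagagggg
Pink1: catgtgaaCCACTAGGTGGCGCctcagtca

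The next 5 are those of the members named below for ΔZF1 against WT by the size of their effect that held a match. The other 2 so named, Upf1 and Igsf21, held none within 2 mismatches and are not printed. They lie at chr5:24361028-24361057 (Nos3, plus strand), chr2:104685582-104685611 (Tcp11l1, plus strand), chr19:43624094-43624123 (Nkx2-3, minus strand), chr2:154300743-154300772 (Bpifb9b, minus strand) and chr8:119359027-119359056 (Hsbp1, plus strand).
Nos3: cacaacggCAGCTAGAGGGCGCccaaggcc
Tcp11l1: caagatggCCAGCAGAGGGCAGcagagccg
Nkx2-3: ccttgagcCCACTAGAGGGCACtggcaggg
Bpifb9b: taactgcaCCACCAGGGGGAGCtctccagc
Hsbp1: aactgtggCCAGCAGAGGGCAGcactgcag
Tcp11l1 and Hsbp1 carried the same 14 letters, although Tcp11l1 lost rank in ΔZF1 NPCs and Hsbp1 gained it, with the values given further on.

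A match to the CTCF core consensus with at most 2 mismatches, on either strand within 50 bp of the median summit, was present at 1244 of the 1437 members (86.6%, exact 95% interval 84.7% to 88.3%, which covers counting error only). In windows of the same size shifted by 1 kb it was present at 4.66%, and at all 68126 sites it was present at 63.7% and 3.41%. Sites over 1 kb from a start with a peak in 21 of the 22 lists held it in 87.9% and those in 11 to 20 lists in 86.4%, so that the members did not stand above these sets in the share with a motif. Sites in 1 to 10 lists held it in 63.5%. A perfect match occurred at 21.2% of the members, and a match with at most 1 mismatch at 62.8%. A match describes the letters only.

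The members differed from the bulk of the sites in which version of the core they carried. The 1244 members with a match held 631 different 14-letter cores, of which 438 occurred once. The most frequent was CCAGCAGGGGGCGC, at 25 members (2.01% of those with a match), against 182 of all sites (0.420%). The next was CCACCAGGGGGCGC, at 23 members (1.85%), against 143 of all sites (0.330%). Over all sites the most frequent core was CCAGAAGAGGGCAT, which stood at 11 members (0.884%), against 5328 of all sites (12.3%). The cores CCAGAAGAGGGCGT and CCAGAAGAGGGCAC were found at 9 members (0.723%) and 13 members (1.05%), against 2274 (5.24%) and 1638 (3.78%) of all sites. Core shares were compared with all sites only, not with the sites over 1 kb from a start in 21 lists. Over all sites the first pair of cores had a peak in a median of 19 and 20 lists, and the last 3 in a median of 3, 3 and 6. These 3 cores sat in sequence that the reference marks as repetitive at 91.9% to 95.8% of their sites, while the first pair did so at 2.20% and 1.40%. The summit lay in such repeats at 8.77% of the members, 11.5% of the distal sites in 21 lists, 22.3% of those in 11 to 20 and 42.3% of those in 1 to 10. A CpG, the dinucleotide that can be methylated, lay inside the matched letters at 63.3% of the members with a match, against 59.3%, 44.3% and 29.1% of these 3 sets.

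The members were GC-rich, with a median of 55.7% G or C within 100 bp of the summit, equal to that of the distal sites in 21 lists. The sites in 11 to 20 lists had 50.7% and those in 1 to 10 lists 47.3%. The median width of a merged member was 834 bp, against 714 bp, 580 bp and 361 bp in the same sets. At 250 members (17.4%) some list held several peaks inside the merged interval.

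Just inside the distance limit stood a member 1010 bp from the start of Tfap2c and one 1020 bp from that of Dner, and just outside it stood sites 996 bp from Trrap and 992 bp from Kctd15. The lowest −log10 q of a member over its 22 lists was 2.04 at the least certain member and 11.9 at the median, and it was under 5 at 59 members. It fell in NPC ΔZF1 replicate 3, the shortest CTCF list with 5755 peaks, at 885 members. The 1180 distal sites that missed 1 list missed this same library in 618 cases (52.4%) and NPC ΔZF1 replicate 1 in 252 cases (21.4%). Without the replicate 3 list, 2055 sites would have met the rule.

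Within its own list a member was usually among the stronger peaks, which the rule favours, since it removed sites weak in any list. Fold enrichment, the ratio of ChIP signal to local background at the summit, was ranked within each list and given as a percentile, where 100 is the strongest peak. The mean percentile over lists had a median of 87.9 for the members and 87.7 for the sites in all 22 lists near a protein-coding start. It was 74.6 for the distal sites in 21 lists. The median percentile of the members lay between 74.2 and 97.2 over the 22 libraries. It was lowest in NPC ΔZF1, at 84.3, 84.7, 74.2 and 93.9 in replicates 1 to 4, against 95.3, 93.3, 94.7 and 89.2 in NPC WT, and the groups overlapped. In ESC ΔZF1 it was 97.2, 91.4, 91.0 and 91.1, against 97.0, 93.5, 94.3 and 87.4 in ESC WT. The means were 84.3 ± 8.05 in NPC ΔZF1, 93.1 ± 2.73 in NPC WT, 92.7 ± 3.05 in ESC ΔZF1 and 93.0 ± 4.05 in ESC WT (SD, n = 4 each). In NPC PodxlpA it was 95.2 and 91.8 and in NPC Grb10pA 94.4 and 94.3, against 92.3 and 95.3 in NPC E14. These percentiles move with the length of the list, which was between 5755 and 33452 peaks in NPC ΔZF1 and between 15052 and 30555 in NPC WT, and of which the members made up 3.13% to 25.0% over all libraries.

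**Figure D1:**
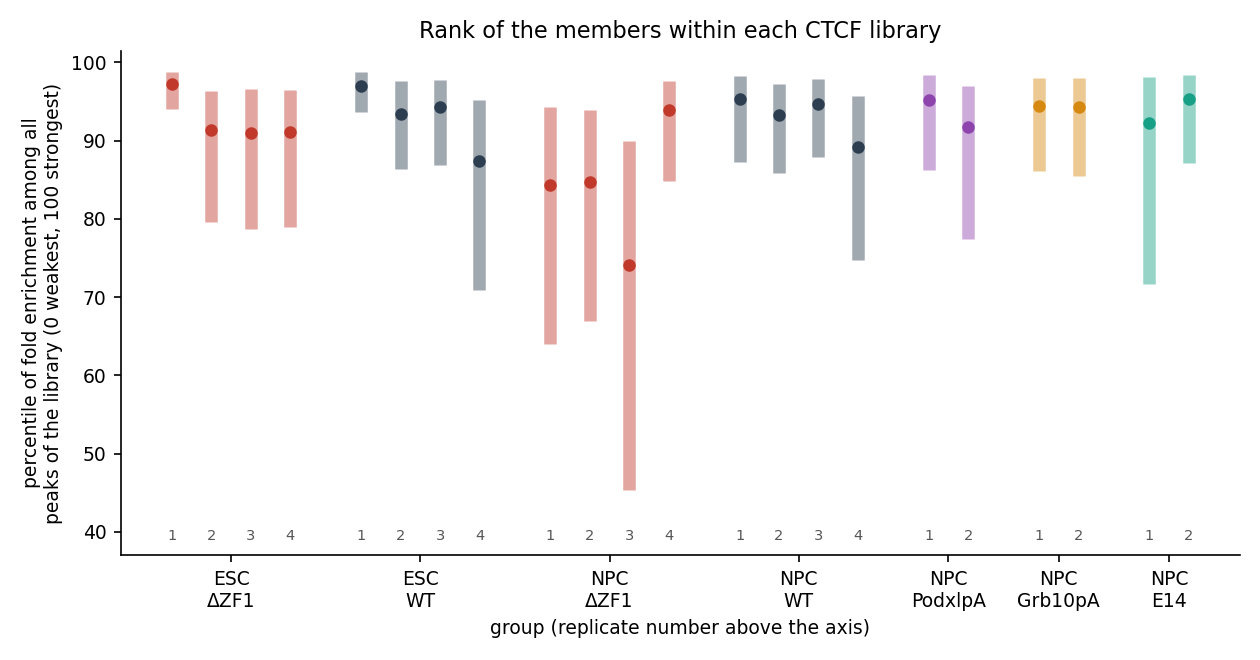
Percentile of fold enrichment of the 1437 members among all peaks of each of the 22 CTCF libraries (y axis, 0 to 100, shown from 37). Points are medians over members and bars run between the quartiles. The medians lie between 74.2 (NPC ΔZF1 replicate 3) and 97.2 (ESC ΔZF1 replicate 1).

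The lists do not state depth, but the fragments at a summit can be solved from its fold and p, and they came out whole for 99.998% or more of the peaks tested per library. The background rate (expected fragments covering a base) was 1.14 to 2.39 for rescue replicates 1 and 4, 0.392 to 0.905 for rescue replicates 2 and 3 and 0.219 to 0.647 in the E14 and polyA libraries. The median summit of a member held 33 to 180 fragments, 16 to 49 and 29 to 65 fragments in these sets. Peak names in all 4 replicate 4 lists carry the number of replicate 2. The labels were followed, but whether replicate 4 is a separate library was not settled, and the values given with n = 4 and their p-values take it as one. Replicate 4 ranked the members like replicate 1 of its group with Spearman correlations of 0.863 to 0.935 over the 4 rescue groups, like replicate 2 with 0.555 to 0.844 and like replicate 3 with 0.558 to 0.810. Libraries of the same group ranked the members alike with a median Spearman correlation of 0.812 (range 0.555 to 0.935, 27 pairs), and libraries of different groups with 0.712 (0.388 to 0.895, 204 pairs). These correlations run across sites, which are not independent replicates.

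The strongest member lay in the coding exon of Gdf15, a stress-induced cytokine gene, where the percentile was between 99.971 and 99.9989 in every list. Its fold enrichment was lowest at 92.8, had a median of 253 and reached 585, with 294 to 4785 fragments at the summit in the rescue libraries. An intron of Rap1gap, which encodes an activator of the Rap1 GTPase, followed with folds between 82.2 and 499.6 (median 196). The others of the 10 strongest lay near Epm2aip1 (a laforin-binding protein, median fold 151), in Ncs1 (a neuronal calcium sensor, 171), in Pink1 (a mitochondrial kinase, 148), near Rbm19 (an RNA-binding protein of ribosome assembly, 158), in the untranslated region of Acbd4 (145), in Twf2 (an actin-binding twinfilin, 127), near Tmem179 (124) and near Galnt17 (a glycosyltransferase, 132). All 10 held a motif with at most 1 mismatch and a peak in 13 or 14 of the 14 Smc3 lists, but in only 2 to 7 of the 8 Rad21 lists.

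The rule kept members over 1 kb from the starts of protein-coding genes, and 734 of them (51.1%) lay inside such genes. The median distance to a start was 17.2 kb (quartiles 6.78 and 40.7 kb), against 16.7, 21.1 and 24.9 kb in the distal sites of 21, 11 to 20 and 1 to 10 lists. More than 100 kb away were 111 members (7.72%), against 8.05%, 11.8% and 17.6% of these sets. The summit was intergenic at 592 members (41.2%), intronic at 525 (36.5%) and in a coding exon at 111 (7.72%), with 69 in untranslated regions, 29 in other exons of protein-coding genes, and 72 and 39 in introns and exons of noncoding genes. The coding exon share was 6.78% among distal sites in 21 lists, 3.89% in 11 to 20 lists and 4.49% in 1 to 10 lists. Of the members within protein-coding genes that held a motif, 47.0% had it on the strand of the gene. Although the rule kept members away from protein-coding starts, 101 lay within 1 kb of another annotated start.

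In all, 858 annotated genes contained a member, 819 of them 1 member, 32 of them 2 and 7 of them 3 or more. Gse1, which encodes a subunit of a histone deacetylase corepressor complex, held 8 of its 45 CTCF sites as members within 353 kb. Gm20388, an annotated gene of 4435 kb on chromosome 8 that spans Gse1 and its neighbours, held 27 of 371. Mmp17, a matrix metalloproteinase gene of 26.9 kb, held 3 members among 4 sites. Nfix, a transcription factor of neural development, held 3 of 18, Vwf, the von Willebrand factor gene, 3 of 10, and Dnah8, an axonemal dynein, 3 of 36.

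Neighbouring members were 425 kb apart at the median (quartiles 120 and 1496 kb, 1416 intervals), which is close to the 476 kb of the distal sites in 21 lists. All 68126 sites had a median spacing of 11.7 kb. Only 45 intervals between members were under 10 kb and 176 under 50 kb, while 131 were over 5 Mb. With a limit of 50 kb between neighbours, 1115 members stood alone, and there were 121 pairs, 22 runs of 3, 2 runs of 4 and 1 run of 6. The run of 6 spanned 75.1 kb of introns of Gse1, and 5 of its members held the motif, which lay on the plus, plus, minus, plus and minus strand in genome order. The closest pair stood 973 bp apart near Cdx2, the caudal homeobox gene, on chromosome 5, and the widest gap was 48.0 Mb on the X chromosome, between members near 1700018G05Rik and Gnl3l, with 512 other CTCF sites inside it.

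The sequences of the closest pair show both motifs on the minus strand, at chr5:147293300-147293329 with no mismatch and at chr5:147294272-147294301 with 2 mismatches. The capitals again mark the matched letters.
Cdx2 first: acaagggtCCACTAGGGGGCGCttgctgct
Cdx2 second: gaggagggCCAGAAGGCGGCGCtctagccc
Each held a peak in all 14 Smc3 lists and in 4 of the 8 Rad21 lists.

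Neighbouring members with motifs pointed towards each other in 25.1% of 1065 pairs, away from each other in 24.5% and the same way in 50.4%. Under 50 kb the shares were 17.9% convergent and 29.1% divergent (134 pairs), and between 50 and 200 kb 26.9% convergent and 22.5% divergent (227 pairs). All sites showed 22.03% and 25.6% under 50 kb and 27.9% and 19.3% between 50 and 200 kb. No test was made of these shares.

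Members were unevenly spread over the chromosomes. Chromosome 11 held 167 (1.37 per Mb), chromosome 8 held 143 (1.11 per Mb) and chromosome 19 held 59 (0.960 per Mb), against 0.527 per Mb in the whole set. The X chromosome held 9 (0.0526 per Mb) and the Y chromosome 2. As a share of the distal CTCF sites of the chromosome, members made up 4.19% on chromosome 8, 3.69% on chromosome 19, 3.25% on chromosome 11 and 0.629% on X, against 2.49% in all. The background fragment rate relative to the median autosome was 1.35 to 1.61 on chromosome 8 over the 22 libraries, 0.909 to 1.08 on chromosome 19 and 0.630 to 0.878 on X. On chromosome 11 it was 1.30 to 1.52 in the rescue libraries and 1.07 to 1.13 in the E14 and polyA libraries, and on chromosome 6, where members made up 2.70% of the distal sites, it was 1.28 to 1.41. The part of these rates in the number of members was not tested.

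**Figure D2:**
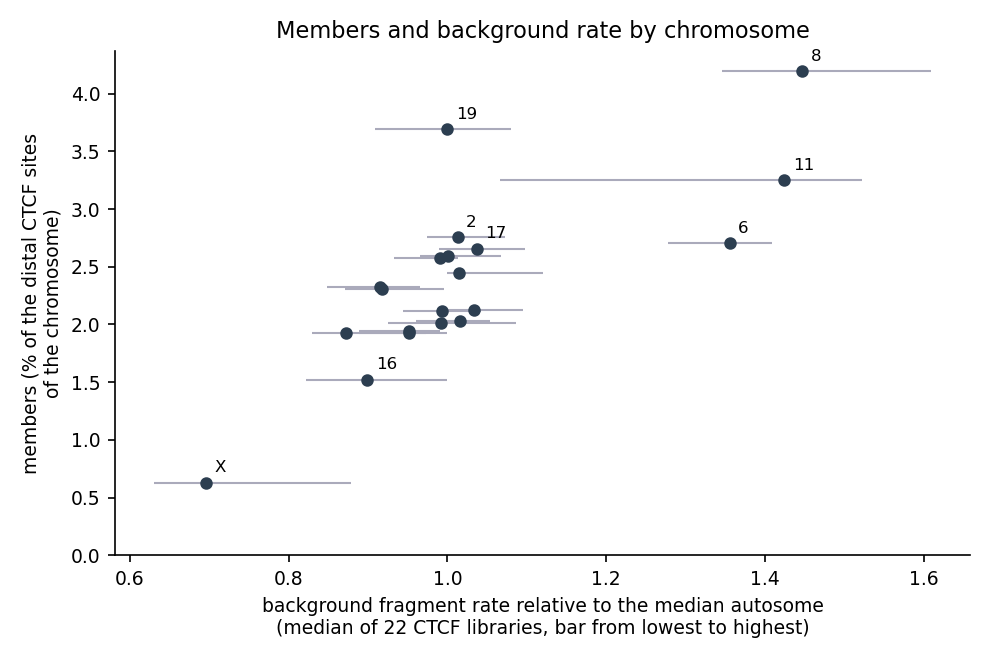
Members as a percentage of the distal CTCF sites of each chromosome (y axis) against the background fragment rate relative to the median autosome (x axis, median of 22 libraries with a bar from lowest to highest). Each point is a chromosome, Y is left out, and some are labelled with their number. Chromosome 8 lies at 4.19% with a rate of 1.35 to 1.61, chromosome 19 at 3.69% with a rate near 1, and X at 0.629%.

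Cohesin peaks overlapped most members in the Smc3 lists and fewer in the Rad21 lists. A Smc3 peak lay on 88.9% and 77.9% of the members in the ESC ΔZF1 libraries, against 86.4% and 65.1% in ESC WT. It lay on 95.3% and 95.2% in NPC ΔZF1, against 95.1% and 80.4% in NPC WT. In NPC PodxlpA the shares were 61.8% and 75.5% and in NPC Grb10pA 71.6% and 71.5%, against 77.7% and 79.3% in NPC E14. Over all 68126 sites the shares in the 14 Smc3 libraries were 11.5% to 42.4%.

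A Rad21 peak lay on 16.4% and 23.6% of the members in ESC ΔZF1, against 36.3% and 61.0% in ESC WT, so that the groups did not overlap. In NPC ΔZF1 the shares were 41.3% and 45.6%, against 39.2% and 51.8% in NPC WT, and the groups overlapped. Over all sites the Rad21 shares were 1.64% to 14.1%. There they were 1.64% and 2.95% in ESC ΔZF1, against 4.87% and 14.1% in ESC WT. These groups did not overlap either, so that the lower Rad21 share in ESC ΔZF1 was not particular to the members. The ESC ΔZF1 Rad21 lists were the shortest, with 1306 and 2347 peaks, against 3539 and 10415 in ESC WT, and the part of list length was not tested. The difference of the mean shares, ΔZF1 minus WT, was −28.7 percentage points for Rad21 in ESCs and −2.02 in NPCs, and 7.65 for Smc3 in ESCs and 7.45 in NPCs. With 2 libraries against 2 the smallest two-sided exact permutation p is 0.333, which cannot pass 0.05, and these differences are given without a test. Without ESC WT replicate 2 the Smc3 difference in ESCs was −2.99, and without NPC WT replicate 2 the Rad21 difference in NPCs was 4.28 and the Smc3 difference 0.104. Without NPC ΔZF1 replicate 1 the Rad21 difference in NPCs was 0.104.

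**Figure D3:**
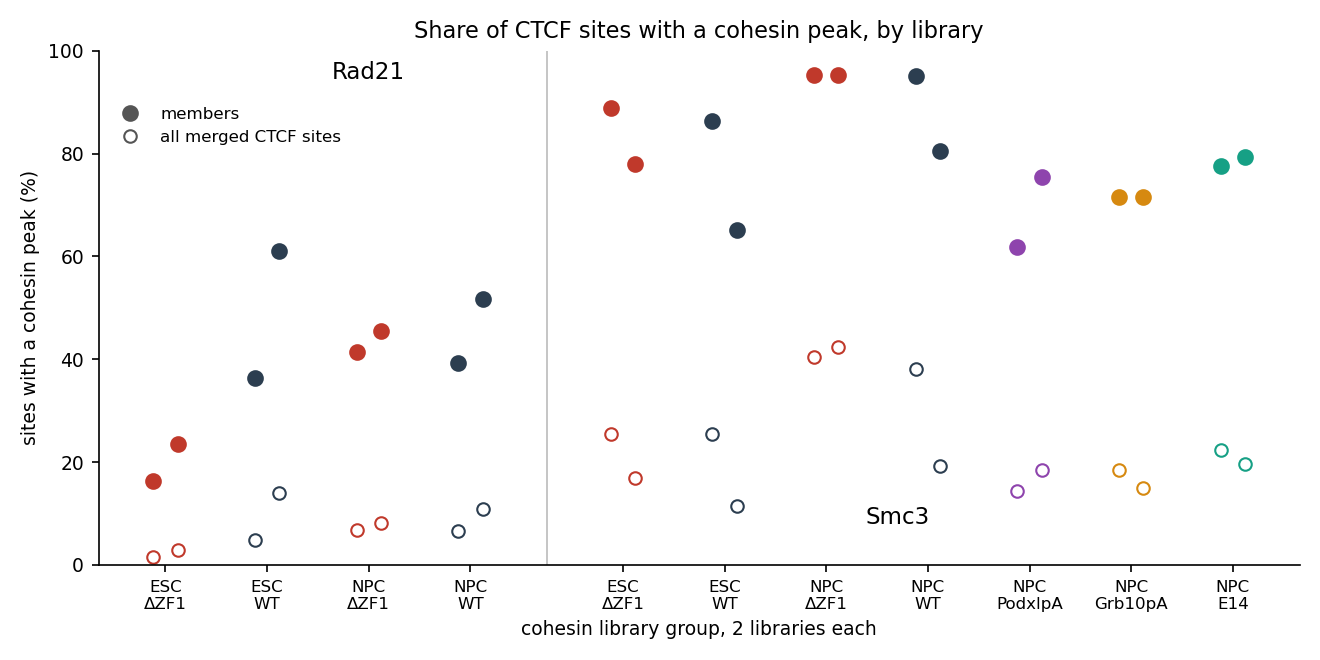
Percentage of the 1437 members (filled) and of all 68126 merged CTCF sites (open) that overlap a Rad21 or a Smc3 peak (y axis), by group, with 1 point per library and 2 libraries per group. Filled points lie between 16.4% and 61.0% for Rad21 and between 61.8% and 95.3% for Smc3, above the open points of the same library throughout.

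The median member held a peak in 13 Smc3 lists and in 2 Rad21 lists. All 14 Smc3 lists marked 595 members (41.4%), and all 8 Rad21 lists 157 (10.9%). All 22 cohesin lists marked 155 members (10.8%), against 0.674% of all sites, and none marked 28 members (1.95%), against 43.9% of all sites. In the distal sites with 21 CTCF lists these shares were 5.93% and 2.37%. The members with a mean percentile of 95.2 or more (359 members) held a peak in all 14 Smc3 lists at 60.4% and in all 8 Rad21 lists at 19.8%, against 22.8% and 2.22% of the 360 with 78.7 or less. The share with a motif was 88.6% in the first of these sets and 83.9% in the second.

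The 5 strongest members with every cohesin list lay in Cfap57 (a cilium protein), Col18a1 (collagen XVIII), Zfp384 and Armc9 and 45.9 kb from Lbr, the lamin B receptor gene, with median folds of 131, 121, 106, 129 and 92.1. The 5 strongest with none lay 3675 bp from Nemf, a gene of ribosome quality control, 146 kb from Mocs1, in an intron of Snx31, in the untranslated region of Coa5, and in an intron of Ctcfl, the germline paralogue of Ctcf. Their median folds were 73.6, 55.4, 57.1, 54.9 and 41.4, so that strong CTCF enrichment also occurred without a cohesin call. At the Nemf site the fold was between 25.7 and 190 in the 22 lists. A noncoding start annotated as a miRNA lay 418 bp from it. Of the 28 members without a cohesin list 57.1% held the motif, and 21.4% held it with at most 1 mismatch, against 91.0% and 68.4% of the 155 with every cohesin list.

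The following sequences set a member with every cohesin list (Lbr, chr1:181888948-181888977, plus strand) beside the strongest without any that held a match (Nemf, chr12:69360810-69360839, minus strand) and that of Ctcfl (chr2:173097542-173097571, minus strand), with the matched letters in capitals.
Lbr: gacattagCCAGCAGAGGGCGCtgcctaac
Nemf: caaaagaaCCAGCAGGGGCTGCtagttcat
Ctcfl: aagtggagCCTGTAGGTGGCGCtgtgattt
They match the consensus with 0, 2 and 1 mismatches. Of the other strongest members with every cohesin list named above, Cfap57, Col18a1 and Zfp384 matched with 1 mismatch and Armc9 with 2. Lbr was thus the closest match among them.

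Rad21 summits lay downstream of the motif and Smc3 summits on it. Along the direction of the motif, the median Rad21 summit lay 11.5 to 15.5 bp downstream of the middle of the motif in each of the 8 libraries. An offset was measured at 207 to 766 members with a motif per library, of which 67.7% to 74.7% were downstream. The medians were 15.5 and 14.5 bp in ESC ΔZF1, against 15.5 and 14.5 bp in ESC WT, and 11.5 and 11.5 bp in NPC ΔZF1, against 13.5 and 13.5 bp in NPC WT. Smc3 summits had medians between −0.5 and 2.5 bp in 14 libraries and CTCF summits between −4.0 and 0.5 bp in 22 libraries. Distal sites in 21 lists had Rad21 medians of 13.5 to 16.5 bp, so that the offset was not particular to the members.

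**Figure D4:**
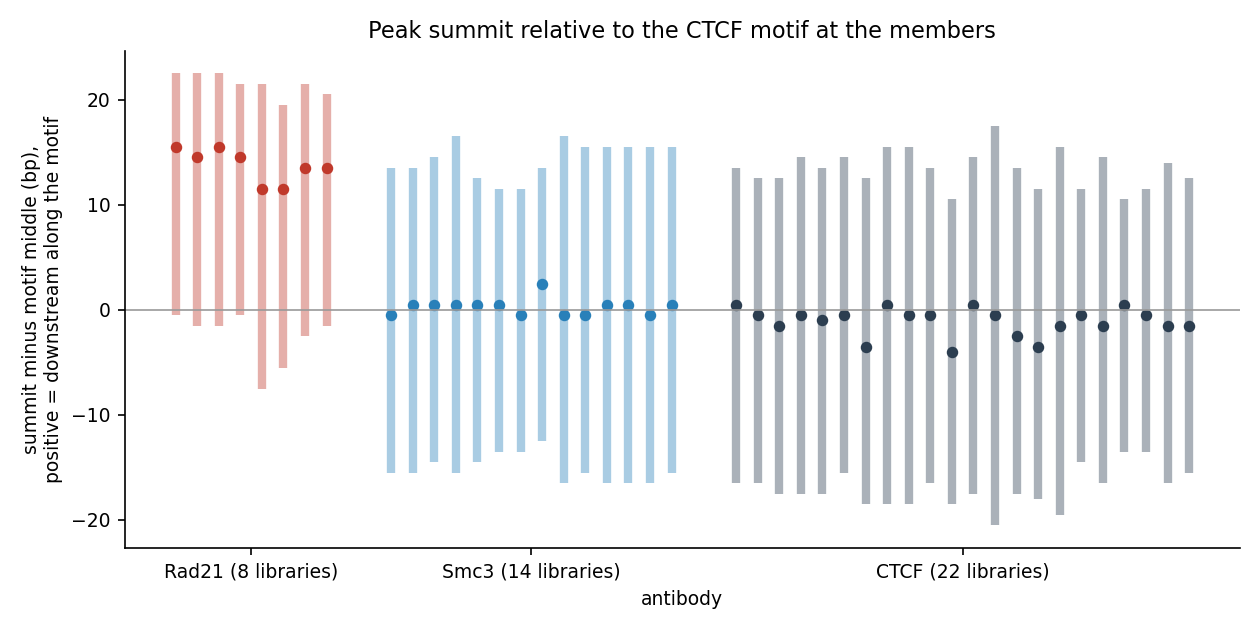
Distance of the peak summit from the middle of the CTCF motif along the motif (y axis, bp, positive downstream) at members with a motif, for each Rad21, Smc3 and CTCF library (x axis). Within an antibody the libraries run from ESC ΔZF1, ESC WT, NPC ΔZF1 and NPC WT to the polyA and E14 groups where these were mapped. Points are medians and bars run between quartiles, and the Rad21 medians lie at 11.5 to 15.5 bp.

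Relative enrichment was compared between groups over the 1883 sites called in all 22 lists. The rank of fold enrichment among these 1883 sites was turned into a normal score in each library and tested with limma (two-sided, Benjamini-Hochberg over the 1883 sites, threshold 0.05). Effects are thus SDs of the score, not fold changes, and percentiles given from here on are among the 1883 sites. Since each library is ranked within itself, a loss at every site would not be seen.

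In ΔZF1 ESCs 2 members fell in rank against WT and none rose, where 0.212% of the 1883 sites were called (0.159% lower). They were an intergenic site 3778 bp from the start of Nos3, the endothelial nitric oxide synthase gene, and a site in an intron of Tcp11l1. At an unadjusted p under 0.05 there were 117 members, where 7.70% of the 1883 sites passed. With the replicate number as a block, 20 members were called, 7 higher and 13 lower, Nos3 and Tcp11l1 among them (1.22% of the sites). The block takes same-numbered rescue libraries as paired, which rests on their deviations in these data and not on the labels.

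In ΔZF1 NPCs 16 members were called against WT, 1 higher and 15 lower, where 1.17% of the 1883 sites were called (0.956% lower), and 190 members passed an unadjusted p under 0.05, where 12.7% of the sites did. Nos3 and Tcp11l1 were again lower. With the block 66 members were called, 13 higher and 53 lower, the 16 among them (4.14% of the sites). With only the 8 libraries compared in the fit, limma called 0 of the members in NPCs (0% of the sites), with 139 at an unadjusted p under 0.05, and 1 in ESCs (0.106% of the sites). Among replicates 2 and 3 alone 5 members were called in NPCs (0.478% of the sites) and 0 in ESCs (0%), and among replicates 1 and 4 alone 25 (1.38%) and 3 (0.212%). Without replicate 4 in any rescue group, chosen after seeing the data, limma called 12 members in NPCs (0.637% of the sites), 8 of the 16 among them, and 0 in ESCs (0%), with 72 there at an unadjusted p under 0.05. Without NPC WT replicate 4 the NPC count was 9 (10 of the 1883 sites) and without NPC WT replicate 3 it was 10 (12 sites). Without NPC ΔZF1 replicate 2 it was 29 (34 sites). In ESCs it was 1 (2 sites) without any of the 4 WT replicates or without ΔZF1 replicate 1.

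The Nos3 site stood at percentiles 43.8, 24.6, 39.3 and 28.8 in ESC ΔZF1, against 81.0, 77.8, 78.0 and 82.4 in ESC WT. In NPC ΔZF1 it stood at 51.7, 42.4, 40.5 and 45.5, against 96.5, 82.7, 80.1 and 91.4 in NPC WT. Every ΔZF1 library lay below every WT library. Fold enrichment in NPC ΔZF1 was 11.1, 15.0, 9.55 and 15.6, with 28, 29, 15 and 60 fragments at the summit, against 68.4, 44.9, 38.0 and 36.5 in NPC WT, with 214, 87, 92 and 152 fragments. The effect was −1.25 ± 0.20 in ESCs (SE, limma adjusted p = 0.00536) and −1.36 ± 0.20 in NPCs (limma adjusted p = 0.00142), and it was called without each of the 8 libraries of either comparison. The interaction of cell type and genotype was −0.11 ± 0.28 (limma adjusted p = 0.999).

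The Tcp11l1 site stood at 4.33, 23.3, 16.6 and 5.10 in ESC ΔZF1, against 53.1, 62.7, 54.9 and 45.8 in ESC WT. In NPC ΔZF1 it stood at 13.9, 36.9, 5.12 and 19.6, against 61.3, 54.8, 53.7 and 69.6 in NPC WT. The groups did not overlap in either cell type. The effects were −1.37 ± 0.26 (limma adjusted p = 0.0261) and −1.23 ± 0.26 (limma adjusted p = 0.0203), which were called in 2 and 5 of 8 fits without a library.

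The site 7699 bp from Upf1, the helicase of nonsense-mediated decay, stood at 8.92, 0.558, 2.10 and 1.43 in NPC ΔZF1, against 47.8, 44.6, 48.8 and 33.1 in NPC WT. In ESC ΔZF1 it stood at 45.4, 37.9, 65.0 and 30.1, against 64.0, 25.7, 56.9 and 49.8 in ESC WT. The groups were apart in NPCs and overlapped in ESCs. The NPC effect was −1.86 ± 0.29 (limma adjusted p = 0.00208) and the ESC effect −0.11 ± 0.29 (limma adjusted p = 0.962), but the interaction of −1.75 ± 0.41 did not pass (limma adjusted p = 0.763). The site held no motif within 2 mismatches. In NPC Grb10pA it stood at 3.32 and 27.4, against 59.6 and 50.7 in NPC E14 (limma adjusted p = 0.126).

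The intergenic site 11.8 kb from Nkx2-3, a homeobox gene of gut and spleen, stood at 9.11, 11.8, 29.6 and 40.1 in NPC ΔZF1, against 84.5, 86.0, 86.7 and 75.3 in NPC WT. In ESC ΔZF1 it stood at 57.1, 31.8, 31.1 and 74.6, against 83.5, 80.5, 69.5 and 87.4 in ESC WT. The NPC groups were far apart and the ESC groups overlapped. The NPC effect was −1.80 ± 0.27 (limma adjusted p = 0.00142) and the ESC effect −0.90 ± 0.27 (limma adjusted p = 0.200).

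The site 6487 bp from Bpifb9b, of a family of secreted lipid-binding proteins, stood at 9.27, 30.3, 2.68 and 28.5 in NPC ΔZF1, against 68.0, 82.2, 62.2 and 70.3 in NPC WT. In ESC ΔZF1 it stood at 53.5, 50.4, 14.8 and 50.6, against 83.5, 76.8, 75.6 and 78.1 in ESC WT. No ΔZF1 library reached a WT library in either cell type. The effects were −1.64 ± 0.29 in NPCs (limma adjusted p = 0.00501) and −1.03 ± 0.29 in ESCs (limma adjusted p = 0.158, and 0.0363 with the block).

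The intergenic site 160 kb from Igsf21, a synaptic adhesion gene, stood at 7.65, 1.75, 13.5 and 29.2 in NPC ΔZF1, against 31.2, 60.3, 68.7 and 59.6 in NPC WT (effect −1.42 ± 0.32, limma adjusted p = 0.0304). The 2 groups lay close at 29.2 and 31.2, and the call was kept in 3 of 8 fits without a library. In ESC ΔZF1 it stood at 3.64, 1.09, 0.797 and 13.6, against 28.1, 18.2, 30.6 and 40.2 in ESC WT, and these groups did not overlap. The ESC effect was −1.34 ± 0.32 (limma adjusted p = 0.0903, and 0.0279 with the block).

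The one member that rose in ΔZF1 NPCs lay 14.5 kb from Hsbp1, which encodes a heat shock factor binding protein. It stood at 15.2, 51.5, 67.6 and 35.8 in NPC ΔZF1, against 0.770, 14.4, 0.982 and 12.5 in NPC WT, so that the groups did not overlap. The effect was 1.52 ± 0.35 (limma adjusted p = 0.0308), and it was called in 4 of 8 fits without a library. As printed above, its 14 motif letters are those of Tcp11l1. This core occurred at 15 members in all and at 269 sites.

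**Figure D5:**
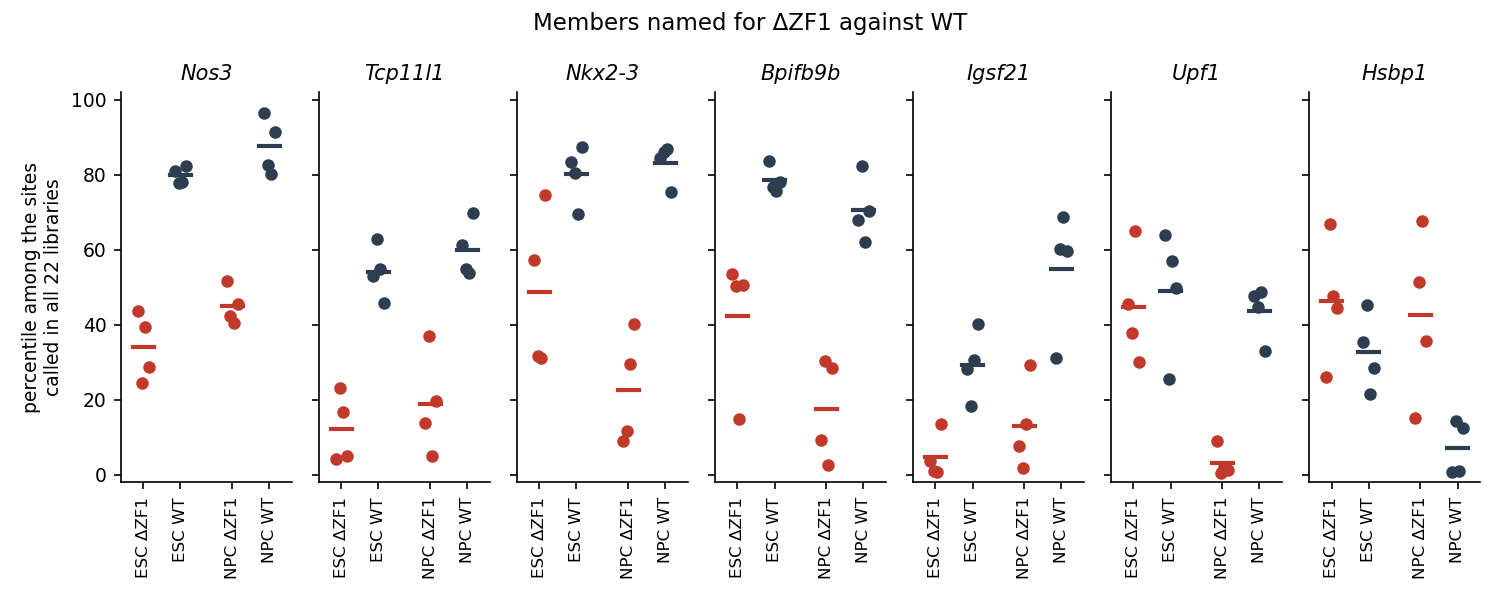
Percentile of fold enrichment among the 1883 sites called in all 22 libraries (y axis) for the named members of the ΔZF1 comparisons, with 1 point per library, 4 libraries per group and lines at the group means. Each panel is a member, named by its gene. At Nos3 and Tcp11l1 the ΔZF1 points lie below the WT points in both cell types, at Upf1 in NPCs alone, and at Hsbp1 the NPC ΔZF1 points lie above.

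The other 9 members that fell in ΔZF1 NPCs had effects between −1.33 and −0.78. In an exon of Ick, a kinase of the primary cilium, the percentiles were 54.4 to 87.5 in NPC ΔZF1, against 96.7 to 98.5 in NPC WT (−1.33 ± 0.23, limma adjusted p = 0.00501). In an exon of Stat3, the transcription factor downstream of LIF, they were 64.5 to 77.6, against 91.6 to 93.5 in NPC WT (−0.97 ± 0.19, limma adjusted p = 0.00913). Near Pdyn, the prodynorphin gene, they were 19.2 to 48.6, against 69.4 to 79.1 in NPC WT (−1.12 ± 0.20, limma adjusted p = 0.00526).

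In all 3 the groups were apart. The remaining ones were Nxph3 (a neurexophilin), Atxn1 (ataxin-1), Ccdc57, Serhl, Ccm2l and Ptger1 (a prostaglandin E2 receptor), with limma adjusted p between 0.00669 and 0.0328. Of the 16, the calls at Nos3, Upf1, Nkx2-3, Bpifb9b, Ick, Pdyn, Stat3 and Ccdc57 were made in each of the 8 fits without a library. Of the 15 that fell, 86.7% held a motif, against 86.6% of the other members, the best-matching 14 letters held a CpG at 46.7% of the 15, against 63.1%, and their median number of Rad21 lists was 4, against 2. These features were not tested.

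Between NPC WT and ESC WT limma called 0 members (0% of the sites), with 145 at an unadjusted p under 0.05, where 10.5% of the sites passed. With the block 2 members were called (0.159% of the sites), voom on the summit fragments called 0, and replicates 1 and 4 alone gave 40 (2.6% of the sites) while replicates 2 and 3 gave 0 (0.0531%). Members with large effects had the following values. A coding exon site of Cacna1a, a neuronal calcium channel gene, stood at percentiles 10.8 to 48.7 in NPC WT, against 47.7 to 85.7 in ESC WT (−1.38 ± 0.29, limma adjusted p = 0.108). A site near Emid1 stood at 0.0266 to 6.69, against 10.97 to 38.5 in ESC WT (−1.42 ± 0.41). A site 60.6 kb from Gnl3l on the X chromosome stood at 2.42 to 45.4 in NPC WT, against 0.186 to 1.94 in ESC WT (1.79 ± 0.53).

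Between NPC ΔZF1 and ESC ΔZF1 the Upf1 site was the 1 member called (−1.89 ± 0.29, limma adjusted p = 0.00518), where 0.0531% of the sites were called, with 160 members at an unadjusted p under 0.05 (10.4% of the sites). The block gave the same count (0.0531%), replicates 1 and 4 alone gave 98 (6.11% of the sites), and replicates 2 and 3 alone (0%) or replicates 1 to 3 alone (0%) gave 0. Without NPC ΔZF1 replicate 2 the count was 4 (4 of the 1883 sites). It was 2 (2 sites) without NPC ΔZF1 replicate 3, NPC ΔZF1 replicate 4 or ESC ΔZF1 replicate 3. The interaction of genotype and cell type gave 0 members with limma (0% of the sites, also with the block), with 37 at an unadjusted p under 0.05 (2.60% of the sites) and 0 with voom. Its largest effects beside Upf1 were Gm35853 (−1.68 ± 0.52), Sorl1 (1.52 ± 0.49) and Emid1 (1.50 ± 0.59), with adjusted p of 0.999 each.

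The lines with a truncated RNA were compared with their parental cells in NPCs. For PodxlpA against E14, limma called 0 members (0% of the sites), with 28 at an unadjusted p under 0.05 (2.28% of the sites) and 0 with voom. The values were largest at Gm32585, with percentiles 2.36 to 3.32 in PodxlpA, against 39.2 to 49.4 in E14 (−1.77 ± 0.48), at Ggt6 (−1.78 ± 0.69), at Mos (1.42 ± 0.73) and at Gm1043 (1.35 ± 0.57). Their adjusted p-values were 1.00.

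For Grb10pA against E14, 4 members were called, 1 higher and 3 lower (0.266% of the sites), with 210 at an unadjusted p under 0.05, where 16.6% of the sites passed. Every one of the 4 calls was lost without any one of the 4 libraries compared, and voom called 0. A site in an intron of Cdh3, the P-cadherin gene, stood at 17.6 and 26.6 in Grb10pA, against 85.5 and 77.7 in E14 (−1.69 ± 0.30, limma adjusted p = 0.0312). A site 49.3 kb from Nat1, an acetyltransferase gene, stood at 4.01 and 2.63, against 80.9 and 67.5 in E14 (−2.51 ± 0.52, limma adjusted p = 0.0424).

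These groups did not overlap, nor did those of the other 2 called members. A site 391 kb from Ebf1, a B cell transcription factor, stood at 2.23 and 1.41 in Grb10pA, against 30.0 and 61.8 in E14 (−1.99 ± 0.40, limma adjusted p = 0.0402), and carried the same 14 motif letters as Tcp11l1 and Hsbp1. A site 21960 bp from Txnrd1, which encodes thioredoxin reductase, stood at 59.1 and 48.8, against 6.93 and 2.95 in E14 (1.78 ± 0.36, limma adjusted p = 0.0402). Its nearest annotated start of any gene type, that of 1700028I16Rik, lay 132 bp away. PodxlpA and Grb10pA share the E14 libraries.

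Members in or within 10 kb of genes of interest were counted against all CTCF sites there. At 14 pluripotency genes 2 of 67 sites were members (2.99%), at 17 neural progenitor genes 4 of 54 (7.41%). At 20 genes of cohesin and its partners it was 2 of 76 (2.63%), and at 21 imprinted genes 3 of 74 (4.05%). At 5 genes engineered or displayed in the study, Grb10 again among them, it was 2 of 23 (8.70%). The clustered protocadherins held 1 of 85 (1.18%). These shares were not tested. None of 45 was a member at 7 genes of the X inactivation centre and X repeats, and none of 77 at the Hox clusters, where over the whole set 2.11% of the sites were members. None of the listed members was called in any comparison (the lowest limma adjusted p was 0.225).

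The pluripotency members lay in an intron of Sox2ot, 9495 bp from the start of the stem cell factor Sox2 (median fold 20.4, 8 Smc3 lists and 0 Rad21 lists), and 7341 bp from Prdm14, a germline and stem cell regulator (median fold 22.4). Of the neural ones, a member 9968 bp from Nes, the nestin gene, had a median fold of 25.95, and one on its other side, nearest to the start of Bcan (brevican), had 53.9 and a peak in all 22 cohesin lists. Neurog2, a proneural factor, held a member in its coding exon (18.3) and another 7690 bp away (17.9). Stag1, a cohesin subunit gene, and Patz1, a zinc finger gene, each held one in an untranslated region (29.5 and 19.3). The imprinted genes Peg3 and Meg3 held one in an intron (20.6) and an exon (11.4).

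Grb10, an imprinted growth adaptor gene and the target of the Grb10pA line, held a member in an untranslated region, 12.8 kb from its start, with peaks in 14 Smc3 and 6 Rad21 lists. It stood at percentiles 52.0 and 30.0 in Grb10pA and 12.03 and 20.7 in PodxlpA, against 5.97 and 48.4 in E14, so that the Grb10pA and E14 groups overlapped (0.56 ± 0.52, limma adjusted p = 0.601). In NPC ΔZF1 it stood at 38.7 to 79.6, against 48.5 to 67.4 in NPC WT. The member 2954 bp from Dlx3, a homeobox gene, stood at 12.3 to 43.8 in NPC ΔZF1, against 31.1 to 52.6 in NPC WT. These groups overlapped as well.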

How the data were processed

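Of 54 samples, 44 had a peak list and 10 inputs were not analysed here. The authors mapped reads to mm10 (Bowtie2), kept those with a mapping quality of at least 30, dropped duplicates (Picard) and blacklisted regions, and ran MACS2 on every sample at q 0.01 (tool versions not given in the sources used here). The deposited lists give, per the authors' caller, a fold enrichment (a ratio), −log10 p and −log10 q, and a display score derived from q. No read counts were analysed here, so the study's DiffBind and DESeq2 test was replaced by limma 3.58.1 on ranks (R 4.3.3, Python 3.11.15). Fragments at a summit were recovered from fold and p within 0.002 in −log10 p.

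All 7 groups entered 1 fit. The script was tested on simulated data. The deviations of rescue libraries with the same replicate number correlated at 0.123 to 0.585 (24 pairs, each over 0.1, median 0.393). Those with different numbers correlated at −0.450 to 0.351 (72 pairs, median −0.148), so that the ranges overlapped. Same-numbered rescue libraries were treated as paired on this ground only in the fits with the replicate block, though the labels state no pairing. The main fit held the 7 group means and no block. In the E14 and polyA libraries the same-number correlations were 0.043 to 0.203, and there too the labels do not tie the numbers. Rescue replicates 1 and 4 (median peak width 352 to 447 bp) and replicates 2 and 3 (190 to 301 bp) were also fitted apart.

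The members, gene lists and tests were chosen with earlier results of these data known. Named were the 10 members with the highest mean percentile, for each contrast up to 5 called in each direction (or the 2 with the largest effects), those in or within 10 kb of listed genes, genes with the most members, the closest and widest intervals, and the 5 strongest with every and with no cohesin list. The remaining called members and the Upf1 comparison with Grb10pA were named after their values were seen. A named member of the comparison of NPC WT with ESC WT is not reported here.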

Additional observations from a re-analysis of the deposited data

Results flagged for a closer look

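Among 64 groups of 4 values of a member or library measure, 4 had 1 value far from the other 3 (by Dixon's ratio). Chance flags about 1 in 20 groups. ESC ΔZF1 replicate 1 had the longest list, with 45941 peaks, and the highest median percentile of the members, 97.2. The Bpifb9b member stood lowest in ESC ΔZF1 replicate 3, at percentile 14.8 among the 1883 sites, and the Grb10 member stood highest in ESC ΔZF1 replicate 2, at 72.2.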

How the results depend on the processing

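Members called by limma are given out of all sites called, where 1883 sites were tested (1882 with voom, more over every site). In ΔZF1 against WT ESCs they numbered 2 of 4. With quantile-normalized log2 fold they numbered 12 of 14, with ranks of −log10 q 8 of 10 and with only the libraries compared 1 of 2. Over every site called in the libraries compared (5188 sites) the count was 0 of 2. With the replicate block it was 20 of 23 and in replicates 2 and 3 alone 0 of 0. In alternatives chosen after seeing the data, replicates 1 to 3 alone gave 0 of 0. Chosen in the same way, voom on summit fragments gave 21 of 24 and the GC trend taken out 10 of 14. In ΔZF1 against WT NPCs the members called numbered 16 of 22, and in these settings 27 of 35 (−log10 q) and 0 of 0 (only the libraries compared, every site). They further numbered 66 of 78 (block), 25 of 26 (replicates 1 and 4), 5 of 9 (replicates 2 and 3) and 25 of 30 (voom). For NPC WT against ESC WT the count of 0 became 1 of 2 (only the libraries compared) and 2 of 3 (block). It became 40 of 49 (replicates 1 and 4) and 2 of 2 (GC). For NPC ΔZF1 against ESC ΔZF1 the count of 1 of 1 became 98 of 115 (replicates 1 and 4). It became 0 of 0 elsewhere (only the libraries compared, every site, replicates 2 and 3, replicates 1 to 3, voom). For Grb10pA against E14 the count of 4 of 5 became 2 of 2 (quantile) and 1 of 1 (−log10 q). With the replicate block it became 101 of 158, though the numbers do not pair these libraries. It became 0 of 0 with only the libraries compared, every site, voom and GC. The cause was not tested. The block changed no other count of calls, and PodxlpA and the interaction gave 0 in each setting run.

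Without 1 replicate at a time the counts ranged from 1 to 3 (ΔZF1, ESCs), 9 to 29 (ΔZF1, NPCs), 0 to 1 (NPC against ESC, WT), 1 to 4 (NPC against ESC, ΔZF1) and 0 to 0 (interaction, PodxlpA and Grb10pA). Among the 1883 sites the calls ranged in the same order from 2 to 5, 10 to 34, 0 to 2, 1 to 4 and 0 to 0. The number of members ranged from 1437 to 2055, and it was 1269 with every transcript start, 1533 with a limit of 500 bp, 1339 with 2000 bp and 1571 without the replicate 4 lists. The Smc3 differences ranged from −2.99 to 18.3 (ESCs) and 0.104 to 14.8 (NPCs), and the Rad21 differences from −41.1 to −16.4 and −8.32 to 4.28. The motif share was 62.8% with at most 1 mismatch, 96.0% with at most 3 and 90.4% in a 100 bp window. Depth limits single values, since named members had as few as 5 summit fragments in a library (Gnl3l, ESC ΔZF1), 7 (Sorl1, ESC ΔZF1) and 9 (Bpifb9b, NPC ΔZF1).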
